A study of Mus musculus with 8 samples.

Results

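Sorted granulocyte progenitors (GPs) of mouse bone marrow that were labelled Irf8KO and carried the receptor Flt3 on their surface (Flt3+) were compared with those from the same genotype that lacked it (Flt3-). The comparison holds 4 of the 8 arrays of the study, 2 of Flt3+ GPs and 2 of Flt3- GPs, chosen by their titles. The other 4 arrays hold the same 2 populations from wild-type mice and are used here only where the difference between populations is set against that in wild type. Each group had 1 array from each of 2 experiments that the design text calls independent, the cells were used as isolated with no treatment, and the labels give neither the number nor the age, sex or strain of the mice. The p-values therefore measure only how far these arrays spread, and that spread may be technical. Values are log2 signals of 1-colour Agilent arrays, set relative to each array's 75th percentile. A difference is Flt3+ minus Flt3-, and a gene is called where the adjusted p (limma, Benjamini-Hochberg over 14105 genes) is under 0.05.

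Flt3 is a receptor tyrosine kinase of multipotent and lymphoid-primed progenitors and of dendritic cell precursors, and its RNA falls as cells commit to making granulocytes. Irf8 is a transcription factor that favours monocyte and dendritic cell fates and holds back the formation of neutrophils, so that mice without it accumulate granulocytes. The C/EBP factors drive the granule genes of neutrophils, with Cebpe acting in late maturation, while Il7r, Rag1 and Ly6d mark progenitors that have begun a lymphoid program.

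The gene named in the genotype was examined with the sort gene. Irf8 read 6.67 and 6.67 on the Flt3+ arrays and 5.64 and 5.53 on the Flt3- arrays, a difference of 1.09 (SE 0.051, adjusted p = 2.74e-05). The Flt3+ arrays were the higher ones, as in wild type, where Irf8 read 5.80 and 5.87 against 4.85 and 4.88, and the difference between genotypes was not called (0.11, adjusted p = 0.291). Irf8 RNA was thus present, and above its wild-type level, on the arrays labelled Irf8KO. The labels do not state what was deleted, so this probe does not check the labels, and the genotype is named by its label throughout. Flt3 read 6.29 and 6.30 on the Flt3+ arrays and 2.71 and 2.68 on the Flt3- arrays. Since the cells were sorted on Flt3, this difference is no finding.

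The labelled cell type was checked against its markers. Mpo, the myeloperoxidase of primary granules, read 9.42 and 9.41 in Flt3+ GPs against a mean of 9.86 in Flt3- GPs, whose lower array read 9.73. Kit, the receptor of stem cell factor, had means of 5.02 and 5.35. Both are well above background on all 4 arrays, as are Elane, Ctsg, Csf3r and Cd34. Of the 14105 genes tested, 12989 were well above background on all 4 arrays and 126 on none of them. On each array 55.2 to 59.7% of the spots were well above background and none was saturated. The arrays of a population correlated across genes at r = 0.9975 (Flt3+) and 0.9973 (Flt3-), with a median SD per gene of 0.046 and 0.055. All 8 arrays lay on 1 slide, where the Flt3+ arrays took columns 1 and 2 and the Flt3- arrays columns 3 and 4. The wild-type arrays took row 1 and the Irf8KO arrays row 2. Slide column and population therefore cannot be told apart, and neither can slide row and genotype.

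Within Irf8KO, more members of the lists for cell division, stem cells, dendritic cells and early lymphoid cells were called higher than lower in Flt3+ GPs, and more members of the lists for granules, eosinophils, basophils and mast cells were called lower than higher. Of all genes 6456 (45.8%) were called, 3121 higher (22.1%) and 3335 lower (23.6%) in Flt3+ GPs, and 7455 had an unadjusted p under 0.05. The shares of 22.1% and 23.6% are the reference for all counts of list members within Irf8KO below. A difference of at least 2-fold was called for 1473 genes (10.4%), 859 of them higher (6.09%) and 614 lower (4.35%), and one of at least 10-fold for 112 higher and 54 lower. The arrays of the 2 populations did not overlap for 10775 genes (76.4%). The median difference over all genes was -0.03, and the median SE was 0.068. After quantile normalization 3795 genes were higher and 3083 lower, so that which direction holds more genes depends on the scaling. With normexp background correction 385 genes were at least 2-fold higher and 365 at least 2-fold lower.

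**Figure D1:**
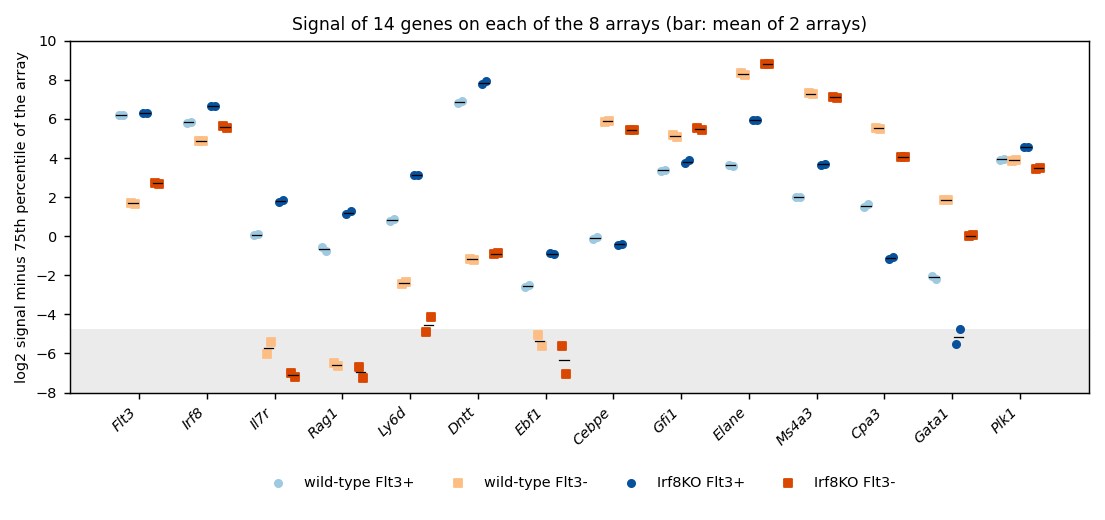
Log2 signal minus the 75th percentile of the array (vertical axis) for 14 genes on each of the 8 arrays, with a bar at the mean of each group of 2. The grey band lies below -4.79, the lowest signal that was well above background on the array where that limit was highest. In Irf8KO the Flt3+ arrays (dark blue) lie above the Flt3- arrays (dark orange) for Irf8, Il7r, Rag1, Ly6d, Dntt, Ebf1 and Plk1 and below them for Cebpe, Gfi1, Elane, Ms4a3, Cpa3 and Gata1.

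The early lymphoid genes held the widest differences. Il7r, the interleukin-7 receptor chain that sustains lymphoid precursors, read 1.72 and 1.84 on the Flt3+ arrays and -7.00 and -7.23 on the Flt3- arrays. Rag1, a subunit of the recombinase that cuts antigen receptor genes, read 1.12 and 1.27 against -6.67 and -7.24. Both were not well above background on either Flt3- array, so only bounds can be given. Il7r was at least 103-fold higher (adjusted p = 2.57e-06) and Rag1, by its brighter probe, at least 68.8-fold higher (adjusted p = 2.97e-06). A second Rag1 probe, well above background on 2 of the 4 arrays, gave a difference of 3.94. Ly6d, a surface protein of progenitors primed for the B lineage, read 3.15 and 3.11 against -4.90 and -4.14 with 1 of the 2 Flt3- signals well above background. It was 202-fold higher (log2 7.66, SE 0.23, adjusted p = 5.72e-06). Dntt, which adds untemplated bases at the joints of antigen receptor genes, read 7.79 and 7.92 against -0.93 and -0.85 and was 429-fold higher (8.75, SE 0.063, adjusted p = 3.12e-07). For each of these genes the arrays of the populations lay far apart, and for Dntt all 4 were well above background.

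Of 33 early lymphoid, recombination and B lineage genes that passed the filter on dim signals, out of 35 listed, 22 were called higher and 3 lower in Flt3+ GPs, the sort gene Flt3 being 1 of the 22. Their median difference was 1.32, or 0.86 with genes dim in 1 population at their bound and 0.48 after normexp background correction, which compresses dim signals. Blnk, an adaptor of the B cell receptor, read 2.51 and 2.58 against -3.52 and -3.06 and was 57.0-fold higher. Vpreb3, a protein of pre-B cells, was 18.6-fold higher (4.22, SE 0.094), and Lax1, a lymphocyte adaptor, was at least 14.7-fold higher. Rag2, the partner of Rag1, stood at 2.75 and Ccr9, a chemokine receptor of thymus-seeding progenitors, at 4.07. Ltb, lymphotoxin beta, stood at 1.99 and Vpreb1 and Vpreb2, surrogate light chain genes of near-identical sequence, at 1.81 and 2.04. Cd79b, a B cell receptor subunit, was not called (0.04), nor were Btk (-0.04) and Syk (0.03), kinases of the same pathway. Csgalnact1 (-0.80), Cd22 (-0.52) and Cd53 (-0.19) were the 3 lower ones, and the call of Cd53 was lost without any 1 of the Irf8KO arrays (-0.206 to -0.181) or of the wild-type Flt3- arrays (-0.193). The call of Cd53 was also lost with no filter on dim probes and with normexp. In these bulk samples, fewer cells with a lymphoid program and less lymphoid RNA per cell cannot be told apart.

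Of 37 measured lymphoid, E protein, Id and Notch transcription factor genes 25 were higher and 5 lower (median 0.51). Ebf1, the factor that specifies B cells, read -0.85 and -0.93 on the Flt3+ arrays and -5.62 and -7.06 on the Flt3- arrays, at least 16.3-fold higher. Its Flt3- arrays were both below the background limit and its Flt3+ arrays both above. Pou2af1, a B cell coactivator, read -0.89 and -0.78 against -4.34 and -4.54 (3.61, SE 0.13), while Tox (3.43), Bach2 (3.11), Mef2c (1.51), Satb1 (1.41), Ikzf1 (0.83) and the E protein gene Tcf4 (1.44) were higher as well. Gata3, a factor of T cells, stood at 1.12. Notch1, the receptor of the T cell fate decision, stood at -2.68 by its brighter probe, which read 0.55 and 0.53 against 3.37 and 3.06, but a second probe of the gene pointed the other way with a difference of 1.21, so no direction is given for it. Id1, an inhibitor of E proteins, was 3.41-fold lower (-1.77), and Id2 was higher (0.49).

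Promoters of genes at the 2 ends of the comparison were searched for motifs, and those that held one are printed. Il7r and Rag1 were among the widest differences on the higher side, and the neighbouring protease genes Elane and Prtn3 were both lower. Each printed promoter is the 250 bases before the transcription start in RefSeq (GRCm38.p6), in the direction of transcription. The letters of any searched motif, on either strand, are in capitals. Il7r, on the minus strand at chr15:9529877-9530126, holds TTGCNNAA, a C/EBP motif, 174 bases before the start. Rag1, on the minus strand at chr2:101649533-101649782, holds the E box letters CAGGTG and CAGCTG at 135 and 128 bases before the start and the Runx motif AACCACA, reversed, at 81. Elane (plus strand, chr10:79886062-79886311) and Prtn3 (plus strand, chr10:79879417-79879666) each hold the PU.1 motif GAGGAAGT, at 85 and 95 bases before the start. The promoters of Dntt, Ms4a3 and Flt3 were searched as well, held none of the motifs and are not printed. The table of promoters holds no entry for Ly6d and Cebpe.
Il7r: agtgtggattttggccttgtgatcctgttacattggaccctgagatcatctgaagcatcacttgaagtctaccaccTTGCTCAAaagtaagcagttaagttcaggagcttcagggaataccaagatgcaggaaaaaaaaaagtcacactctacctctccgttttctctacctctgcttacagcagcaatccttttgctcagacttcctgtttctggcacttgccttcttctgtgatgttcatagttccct
Rag1: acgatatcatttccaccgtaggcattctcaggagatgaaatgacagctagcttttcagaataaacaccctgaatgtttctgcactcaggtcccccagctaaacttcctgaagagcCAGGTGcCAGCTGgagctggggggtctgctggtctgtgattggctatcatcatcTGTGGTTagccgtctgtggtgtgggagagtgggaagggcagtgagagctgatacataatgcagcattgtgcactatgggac
Elane: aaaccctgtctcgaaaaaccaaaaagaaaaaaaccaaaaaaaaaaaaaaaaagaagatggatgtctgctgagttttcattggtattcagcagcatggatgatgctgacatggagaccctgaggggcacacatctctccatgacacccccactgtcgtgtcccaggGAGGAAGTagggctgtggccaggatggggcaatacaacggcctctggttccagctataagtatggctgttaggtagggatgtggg
Prtn3: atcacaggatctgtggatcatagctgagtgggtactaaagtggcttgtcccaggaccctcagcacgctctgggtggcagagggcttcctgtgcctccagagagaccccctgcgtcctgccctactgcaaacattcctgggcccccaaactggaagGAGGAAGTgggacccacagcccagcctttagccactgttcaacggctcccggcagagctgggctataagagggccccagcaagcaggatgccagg

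The same motifs were counted over the promoters of all genes called at least 2-fold. TTGCNNAA was in 7.52% of 665 promoters of genes called at least 2-fold higher, in 14.1% of 482 promoters of genes called at least 2-fold lower, and in 7.85% of 11299 promoters of all genes tested. The other C/EBP motif, TTNCGCAA, was in 0.451, 1.45 and 1.0%. GAGGAAGT was in 4.66% of the higher and 3.53% of the lower set, against 2.48% of all genes tested, and AACCACA in 4.21, 3.94 and 3.35%. The E box CAGCTG was in 13.5, 13.5 and 11.5%, and CAGGTG in 17.0, 18.3 and 15.5%. The interferon-stimulated response motif was in 4.51, 3.94 and 2.81%, and the ETS-IRF composite motif in 2.11, 2.49 and 2.1%. A match is a description of letters and not of binding, and these shares were not tested.

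Among the factors of granulocytes and monocytes, Cebpe separated the populations most. It read -0.44 and -0.39 on the Flt3+ arrays and 5.41 and 5.41 on the Flt3- arrays, 56.7-fold lower in Flt3+ GPs (-5.83, SE 0.057, adjusted p = 6.82e-07). All Flt3+ values lay below all Flt3- values, while 76.4% of all genes had no overlap in 1 direction or the other. Gfi1, a repressor needed for neutrophil development, read 3.76 and 3.88 against 5.53 and 5.42 (-1.66, SE 0.066). The differences of the other C/EBP genes were smaller: Cebpd stood at -1.34, Cebpa at -1.10 and Cebpb at -0.75, while Cebpg (0.04) was not called. Of the 30 genes of the list, 14 were higher and 11 lower (median 0.16). On the higher side stood Irf4, a relative of Irf8 (at least 5.08-fold), Klf2 (2.33), the retinoic acid receptor gene Rara (2.19), Mycn (1.22), Irf5 (1.13), Vdr (1.02) and Runx1 (0.47). Spi1, which encodes PU.1, stood at -0.30 (adjusted p = 0.0169), but its call was lost without Irf8KO Flt3+ replicate 2 (-0.205), without Irf8KO Flt3- replicate 1 (-0.298) and without Irf8KO Flt3- replicate 2 (-0.302).

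Granule genes were lower in Flt3+ GPs. Elane, neutrophil elastase, read 5.96 and 5.96 on the Flt3+ arrays and 8.79 and 8.80 on the Flt3- arrays, 7.12-fold lower (-2.83, SE 0.054, adjusted p = 1.76e-06). Ms4a3, a membrane protein of granulocyte-monocyte progenitors, read 3.67 and 3.67 against 7.10 and 7.09 (-3.43, SE 0.037). In both genes the replicate arrays differed by far less than the populations. Of 27 measured genes of primary granules and early granulocytes, out of 30 listed, 25 were lower and 1 higher, with a median of -1.20. The serine protease genes Prss57 (-2.17), Prtn3 (-1.77) and Ctsg (-1.20) were lower, as were Gstm1 (-3.19), Fcnb (-2.97), Dmkn (-2.72) and Cd63 (-2.49). Mpo stood at -0.44 (adjusted p = 0.0253), and its call was lost without Irf8KO Flt3+ replicate 1 (-0.448), without Irf8KO Flt3+ replicate 2 (-0.439) and without Irf8KO Flt3- replicate 1 (-0.31). The call of Mpo was also lost with no filter on dim probes. Ctsc, the protease that activates these enzymes, was not called (-0.05). The 1 higher member of the list, Myl10, is a myosin light chain gene and not a granule gene. It read 1.71 and 1.80 against -2.96 and -3.08 and was 27.5-fold higher.

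The later granule genes were mixed. Of 30 measured secondary and tertiary granule genes 18 were lower and 8 higher (median -0.29). Lower were Abca13 (at least 8.60-fold), Pglyrp1 (-3.03), the leukotriene receptor gene Ltb4r1 (-2.25), the siderophore binder Lcn2 (-2.06), the NADPH oxidase subunit Cybb (-2.05) and haptoglobin, Hp (-1.55). Mmp8, neutrophil collagenase, went the other way: it read 2.79 and 2.82 on the Flt3+ arrays and -1.13 and -1.22 on the Flt3- arrays, 15.8-fold higher (3.98, SE 0.064). Slc27a2, a fatty acid transporter, was also higher (5.93, SE 0.34), and so was Cd33 (2.63). S100a8 was lower (-0.67) and S100a9, whose protein pairs with that of S100a8, was higher (0.40). Ltf, lactoferrin, stood at 0.70 and Ngp at 0.39. Of 24 measured mature neutrophil genes, out of 34 listed, 14 were lower and 4 higher (median -0.48), with the Fc receptor gene Fcgr3 at -2.79, Cd14 at -2.53 and the chemokine receptor gene Cxcr2 at -1.11. Csf3r, the receptor of G-CSF, was not called (-0.14).

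Genes of other myeloid branches were lower in Flt3+ GPs. Cpa3, a mast cell carboxypeptidase, read -1.17 and -1.06 on the Flt3+ arrays and 4.03 and 4.03 on the Flt3- arrays, 35.2-fold lower (-5.14, SE 0.066, adjusted p = 8.17e-07). Hdc, which makes histamine, read 0.73 and 0.88 against 5.24 and 5.27, 21.9-fold lower (-4.45, SE 0.063). Neither gene had overlapping populations, as was the case for 76.4% of all genes. Of 36 measured basophil and mast cell genes, out of 44 listed, 25 were lower and 7 higher (median -1.01, or -0.51 after normexp). Il1rl1, the receptor of interleukin-33, stood at -3.48, Alox5 at -3.49 and Slc18a2 at -2.94, and Ms4a2, a subunit of the IgE receptor, was at least 2.39-fold lower. The high-affinity IgE receptor gene Fcer1a was not well above background on any of the 4 arrays. Hpgds was at least 1.94-fold higher and Ptger3 stood at 1.82.

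Of 16 measured eosinophil genes, out of 22 listed, 14 were lower and none higher (median -1.68, or -0.91 after normexp). Prg2, the major basic protein, read -2.47 and -2.56 against 0.68 and 0.59 (-3.15, SE 0.054), Siglecf stood at -2.62 and the peroxidase gene Epx at -2.00. Ear1, Ear2, Ear6 and Ear10 belong to a family of similar copies whose probes may share targets, so their values are uncertain. Gata1, the factor of eosinophil, mast, erythroid and megakaryocyte cells, read -5.52 and -4.77 against -0.00 and 0.05 (-5.17, SE 0.23), with 1 of its 2 Flt3+ arrays well above background. Gata2 was 2.14-fold lower (-1.10).

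Erythroid and megakaryocyte genes were called in both directions. Of 30 measured erythroid genes 12 were lower and 5 higher (median -0.22), with Gata1 the lowest. Of 30 measured megakaryocyte and platelet genes 15 were lower and 9 higher (median -0.34). Serpine2, a protease inhibitor, read -4.45 and -4.53 against 0.31 and 0.48 (-4.88, SE 0.096), the integrin chain gene Itga2b stood at -2.57 and platelet factor 4, Pf4, at -1.12. P2ry12, an ADP receptor of platelets, was at least 5.38-fold higher and Mmrn1, multimerin, stood at 2.19. The summed signal of the erythroid list lay between 7.26 and 7.28 in Flt3+ GPs and between 7.52 and 7.53 in Flt3- GPs, that of the megakaryocyte list between 6.07 and 6.13 against 6.14 on both Flt3- arrays, and that of the basophil and mast cell list at 9.31 on both Flt3+ arrays against 10.40 and 10.49. Their part in the other differences was not tested.

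Genes of T and NK cells were called in both directions too, beside 22.1% of all genes higher and 23.6% lower within Irf8KO. Of 25 measured genes, out of 32 listed, 10 were higher and 9 lower in Flt3+ GPs (median -0.12). Lck, a kinase of T cell receptor signalling, read 3.15 and 3.24 on the Flt3+ arrays and 0.36 and 0.40 on the Flt3- arrays (2.81), and Klrd1, which encodes CD94, stood at 2.90. Cd2, an adhesion receptor, read -7.53 and -7.38 against -3.22 and -2.96, at least 4.34-fold lower, while Cd3d, a T cell receptor subunit, was at least 3.13-fold lower, the cytotoxic granule gene Nkg7 was lower (-2.00) and Cd3e (-0.15) was not called. The summed signal of the list was 5.88 and 5.90 in Flt3+ GPs against 6.79 and 6.82 in Flt3- GPs. Most of the Flt3- sum came from Nkg7, whose means were 4.46 in Flt3+ and 6.46 in Flt3- GPs. The sum thus does not show how the other members moved, and its part in the other differences was not tested. In the difference between genotypes 1 of the 25 genes was called as higher and 10 as lower in Irf8KO. The shares over all genes were 21.4% and 9.46%. Cd2 (-4.87) was the lowest, with wild-type values of -3.97 and -3.76 against -4.37 and -4.39. Its Irf8KO Flt3+ signals were not well above background, so the size of this difference rests in part on dim signals.

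**Figure D2:**
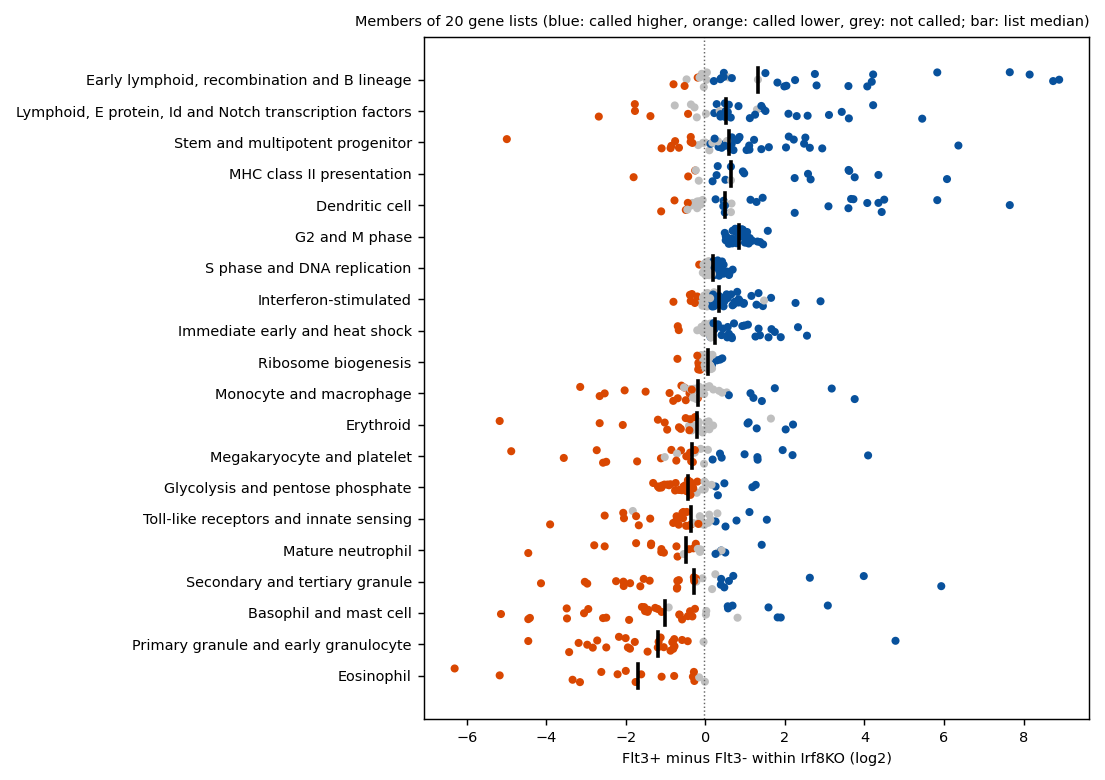
Difference Flt3+ minus Flt3- within Irf8KO (log2, horizontal axis) for each measured member of 20 gene lists (vertical axis), coloured by the call, with a black bar at the list median and a dotted line at the median over all genes of -0.03. The early lymphoid list has a median of 1.32, all 37 G2 and M phase genes lie to the right, and the eosinophil (median -1.68) and primary granule lists (median -1.20) lie to the left apart from Myl10.

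Dendritic cell genes were higher in Flt3+ GPs for 19 of 34 measured genes, out of 44 listed, and lower for 4 (median 0.51). The sort gene Flt3 and the lymphoid genes Ly6d, Blnk and Ccr9, which this list also holds, are among the 19. The summed signal of the list did not follow these counts: it was 9.60 and 9.61 on the Flt3+ arrays and 9.75 and 9.65 on the Flt3- arrays. Cox6a2, a mitochondrial subunit of plasmacytoid dendritic cells, read 4.97 and 4.95 on the Flt3+ arrays and 0.44 and 0.48 on the Flt3- arrays, 22.6-fold higher (4.50, SE 0.045, adjusted p = 6.82e-07). Ccr7, the lymph node homing receptor, stood at 4.43, the integrin gene Itgax, which encodes CD11c, at 3.66, and the costimulatory gene Cd86 was at least 9.50-fold higher. All of these separated the populations with no overlap, as did 76.4% of all genes. Clec9a, a receptor of conventional dendritic cells, was not well above background on any of the 4 arrays, and Batf3 and Xcr1 did not pass the filter.

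Of 21 measured genes of MHC class II antigen presentation 15 were higher and 3 lower (median 0.64). H2-Eb1, a class II beta chain, read 0.51 and 0.64 on the Flt3+ arrays and -2.94 and -3.11 on the Flt3- arrays (3.60, SE 0.088), and Cd74, the invariant chain, stood at 2.58. The lysosomal protease genes Ctss (3.76) and Lgmn (6.08, SE 0.28, with 1 of 2 Flt3- arrays well above background) were higher, while Ctsh was lower (-1.80). Ciita, the master regulator of class II genes, was not called (0.64, SE 0.57).

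Monocyte and macrophage genes did not move together. Of 39 measured genes 14 were lower, 7 higher and 18 not called (median -0.19), beside 23.6% of all genes lower and 22.1% higher. Csf1r, the receptor of M-CSF, read 4.97 and 5.02 on the Flt3+ arrays and 4.98 and 4.99 on the Flt3- arrays, with overlapping arrays, and Ccr2 was not called either (-0.08). Ly6c1 was 8.86-fold lower (-3.15) and Apoe, apolipoprotein E, 6.31-fold lower (-2.66). Cx3cr1, the fractalkine receptor gene, read 3.16 and 3.29 against 0.14 and -0.05 and was 9.05-fold higher (3.18, SE 0.084).

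Of 46 measured stem and multipotent progenitor genes 30 were higher and 9 lower (median 0.58). Mn1, a transcriptional coregulator known from leukaemia, read 1.71 and 1.88 on the Flt3+ arrays and -4.44 and -4.68 on the Flt3- arrays, 82.3-fold higher (6.36, SE 0.13). Egfl7 (2.94), the endothelial and stem cell receptor gene Robo4 (2.48), Hmga2 (2.22), Emcn (2.10), Procr (2.03) and the factor gene Hlf (1.60) were higher as well, and Cd34 was 2.16-fold higher. Prom1, which encodes CD133, was the clear exception: it read -2.51 and -2.65 against 2.45 and 2.37, 31.8-fold lower (-4.99, SE 0.060). Gata2 (-1.10), Vwf (-0.86) and Kit (-0.33) were lower too.

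Receptors of cytokines were called in both directions. Over all genes 22.1% were higher and 23.6% lower, the shares for all counts of this paragraph. Of 46 measured receptor genes 20 were higher, with Il7r and Flt3 among them, and 15 lower (median -0.01). In the interleukin-1 receptor family Il18r1 (2.76), Il1r1 (2.70) and Il18rap (2.33) were higher, while Il1rl1 was lower (-3.48). Dimmer probes gave 1.50 for Il18r1 and -2.32 and -1.32 for Il1rl1. The receptor genes Lifr and Il6st (1.95), whose products form the receptor of leukaemia inhibitory factor, were higher too. Lifr was at least 15.1-fold higher by its brightest probe, while other probes gave differences of 1.82 and 3.40. The receptor chains of GM-CSF, Csf2ra (-1.14) and Csf2rb (-1.04), were lower, as was Ifngr1 (-1.12). Of 28 STAT, SOCS and Pim genes 10 were higher and 5 lower (median 0.06), and the feedback inhibitors Socs2 (1.80), Socs3 (1.38) and Cish (1.21) were the highest, against Stat3 at -0.62. Of 37 measured chemokine receptor, integrin and selectin genes 13 were higher and 11 lower. Vcam1, the ligand of integrin alpha 4, read -6.63 and -6.88 on the Flt3+ arrays and -0.48 and -0.45 on the Flt3- arrays, at least 26.8-fold lower.

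Innate sensing genes were lower in Flt3+ GPs, and interferon-stimulated genes higher. Of 39 measured Toll-like receptor and innate sensing genes 20 were lower and 5 higher (median -0.35), with Irak3 at -2.05, the endotoxin receptor gene Tlr4 at -1.39 and Cd180 at 1.55. Naip2, a sensor of bacterial secretion systems, stood at -3.90, though the Naip genes are near-identical copies. Of 58 measured interferon-stimulated genes 37 were higher and 6 lower (median 0.35). Ifi44 read 0.02 and 0.10 against -2.77 and -2.90 (2.90, SE 0.065), Rtp4 stood at 1.65 and the factor gene Irf7 at 1.29. Of 45 measured immediate early and heat shock genes 27 were higher and 2 lower (median 0.24), with Nr4a1 at 1.75 and Egr1 at 0.72, and with the chaperone gene Hspa5 lower (-0.69).

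Genes of cell division were higher in Flt3+ GPs. All 37 listed G2 and M phase genes were measured and called higher, by 0.49 (Ccnb2) to 1.57 (Cenpf), with a median of 0.85. Plk1, a mitotic kinase, read 4.56 and 4.55 on the Flt3+ arrays and 3.43 and 3.50 on the Flt3- arrays, 2.13-fold higher (1.09, SE 0.044, adjusted p = 1.56e-05). Ccnb1, cyclin B1, read 3.71 and 3.75 against 2.54 and 2.56 (1.18, SE 0.046), and Mki67, the Ki-67 antigen, 6.14 and 6.22 against 5.28 and 5.34 (0.87, SE 0.067). The phosphatase gene Cdc25b (1.45), the ubiquitin-conjugating enzyme gene Ube2c (1.12), the topoisomerase gene Top2a (1.02) and the kinase gene Aurka (1.00) were higher too. Without Irf8KO Flt3+ replicate 2, 36 of the 37 were called. The summed signal of the list was 9.02 and 9.04 on the Flt3+ arrays and 8.23 and 8.24 on the Flt3- arrays.

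S phase genes moved by less. Of 49 measured S phase and DNA replication genes 27 were higher and 1 lower (median 0.20), and none differed 2-fold. Cdc7, a replication kinase, stood at 0.69 and the primase subunit Prim2 at 0.60, while the helicase genes Mcm2 (0.05), Mcm4 (0.09), Mcm5 (0.09) and Mcm6 (0.07) were called only after quantile normalization, at 0.129, 0.181, 0.14 and 0.28. Of 47 ribosome biogenesis genes 6 were higher, 6 lower and 35 not called (median 0.07). With quantile normalization 36 S phase genes were higher and 1 lower, and 17 ribosome biogenesis genes were higher and 4 lower. Without Irf8KO Flt3+ replicate 2, 20 S phase genes were higher, and 2 ribosome biogenesis genes were higher and 1 was lower. The latter counts without Irf8KO Flt3+ replicate 1 were 3 and 2, and without either wild-type Flt3- array or Irf8KO Flt3- replicate 1, 4 ribosome biogenesis genes were higher and 3 to 4 lower.

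**Figure D3:**
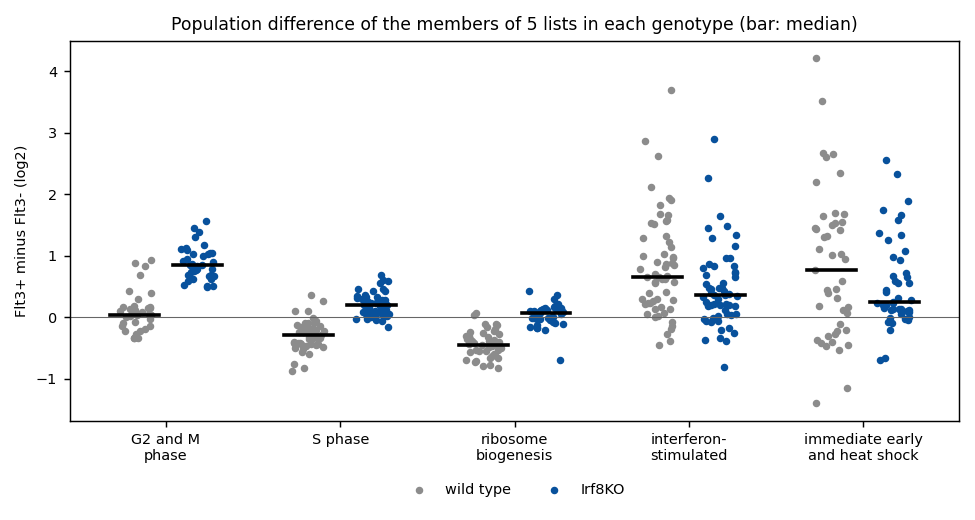
Difference Flt3+ minus Flt3- (log2, vertical axis) for each measured member of 5 gene lists, in wild type (grey) and Irf8KO (blue), with a bar at the median. The G2 and M phase genes have a median of 0.04 in wild type and 0.85 in Irf8KO, the S phase genes -0.29 and 0.20, the ribosome biogenesis genes -0.45 and 0.07, the interferon-stimulated genes 0.66 and 0.35 and the immediate early and heat shock genes 0.77 and 0.24.

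Genes of sugar metabolism were mostly lower. Of 36 glycolysis and pentose phosphate genes 25 were lower in Flt3+ GPs and 5 higher (median -0.43). Pygl, glycogen phosphorylase, read 4.55 and 4.61 against 5.91 and 5.87 (-1.31, SE 0.043), and Pgd, an enzyme of the pentose phosphate pathway, stood at -1.19. Gys1 (-1.16), Pfkp (-1.10), Hk3 (-0.88), Gpi1 (-0.76) and Aldoa (-0.75) were lower too, while the glucose transporter gene Slc2a3 was 2.41-fold higher (1.27). Of 29 measured NADPH oxidase and lysosomal genes 21 were lower and 4 higher (median -0.35), with Ctsb at -1.12 and Hexa at -1.03.

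Apart from the genes above, the genes of the largest differences that were well above background on all 4 arrays included several with other known functions. Emp1, an epithelial membrane protein, read 3.18 and 3.14 on the Flt3+ arrays and -3.47 and -3.48 on the Flt3- arrays, 99.3-fold higher (6.63, SE 0.13). Klhl30 (52.6-fold), the thromboxane receptor gene Tbxa2r (41.8-fold), Tmem121 (30.3-fold) and Mzb1, a chaperone of immunoglobulin-making cells (26.3-fold), followed. Among genes dim in Flt3- GPs, the germ cell helicase gene Ddx4 was at least 50.6-fold, the Ras regulator Rasal1 at least 43.4-fold, the ephrin receptor gene Epha2 at least 33.4-fold and Nsg2 at least 28.0-fold higher. On the lower side stood Mgam, an intestinal and neutrophil glucosidase (-4.85, SE 0.56), the prolactin relative Prl2c1 (28.7-fold), Cited4 (24.1-fold), the adhesion gene Ncam1 (21.8-fold) and Chst13 (20.4-fold by its brighter probe, against a difference of -1.24 by another). The value of Ncam1 is that of its brightest probe, and its dimmer probes gave differences of -3.96 and -2.92. Olr1, a receptor of oxidised lipoprotein, was at least 51.0-fold lower, and Nrg1 (22.3-fold), Gm9733 (17.9-fold), the peroxidase gene Gpx3 (11.1-fold) and the scavenger receptor gene Stab1 (10.9-fold) were lower by at least these amounts.

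**Figure D4:**
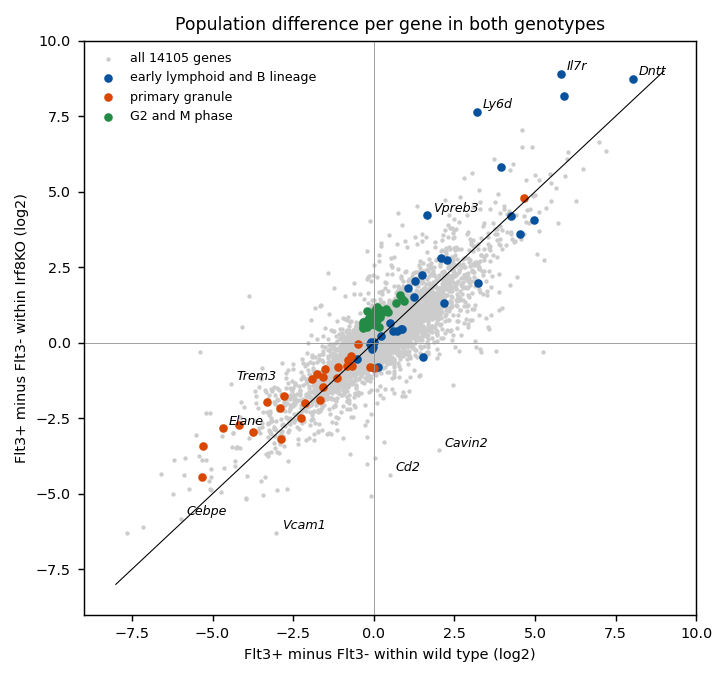
Difference Flt3+ minus Flt3- per gene in wild type (log2, horizontal axis) and in Irf8KO (log2, vertical axis) for 14105 genes, with 3 lists coloured and the line of equal differences. Points follow the line (r = 0.832 across genes), the G2 and M phase genes lie above it, and Cd2, Cavin2 and Vcam1 lie far below it. The Irf8KO Flt3+ signals of Cd2 and Vcam1 were not well above background.

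The same contrast in wild type served as the reference. There, 8725 genes (61.9%) were called, 3192 higher (22.6%) and 5533 lower (39.2%), 1099 of them at least 2-fold higher (7.79%), and the median size of a difference was 0.318, against 0.219 in Irf8KO. Across genes the 2 sets of differences, which share no array but share the probes and the slide, correlated at r = 0.832 (rho = 0.681). The difference between genotypes was called for 4356 genes (30.9%), 3022 with a higher value in Irf8KO (21.4%) and 1334 with a lower one (9.46%). This split rests on the scaling, with 1975 and 1866 after quantile normalization, when the median over all genes moved from 0.069 to 0.008. It was at least 2-fold for 430 genes (3.05%), 193 higher (1.37%) and 237 lower (1.68%). Of the 1835 genes called at least 2-fold in wild type, of which 736 (5.22%) were lower in Flt3+ GPs, 661 were called as smaller in Irf8KO, 139 as larger and 43 as turned in sign, and 992 were not called as different. Calls of the difference between genotypes also depend on single arrays: 2517 to 4414 genes were called when 1 array was left out, with 2585 and 2552 without wild-type Flt3- replicates 1 and 2 and 2898 and 2517 without Irf8KO Flt3+ replicates 1 and 2.

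Of the 33 measured early lymphoid genes, 10 were called as higher and 7 as lower in the difference between genotypes. Over all genes 21.4% were called as higher and 9.46% as lower. The early lymphoid list's median difference was 1.32 in Irf8KO and 1.24 in wild type. The markers Ly6d, Il7r and Rag1 were among the 10, and Cebpe, of the granulocyte factors, was not called. In wild type Ly6d read 0.77 and 0.87 on the Flt3+ arrays and -2.42 and -2.34 on the Flt3- arrays, so its difference was larger in Irf8KO by 4.45 (SE 0.33, adjusted p = 0.00143), from both sides. Il7r read 0.04 and 0.13 in wild-type Flt3+ GPs against -6.04 and -5.41, with a difference between genotypes of 3.09 (adjusted p = 0.00227), and Rag1 read -0.55 and -0.78 against -6.49 and -6.66, with 2.25 (adjusted p = 0.00419). For Il7r and Rag1 the Flt3- signals were not well above background in either genotype, so the size rests in part on dim signals, and normexp gave 1.492 and 1.583. Cebpe had a difference between genotypes of 0.15 (SE 0.081, adjusted p = 0.22). Blnk (1.89), Vpreb3 (2.56), Mzb1 (2.52) and Pou2af1 (2.11) had larger differences in Irf8KO too, while that of Ltb was smaller by 1.26.

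Of the 27 measured primary granule genes, 12 were called as higher and 3 as lower in the difference between genotypes. Of 30 secondary and tertiary granule genes 8 were called as higher and 3 as lower, against 21.4% and 9.46% of all genes. Elane read 3.66 and 3.58 on the Flt3+ arrays of wild type against 8.36 and 8.25 on its Flt3- arrays, and its difference moved from -4.68 to -2.83 (difference between genotypes 1.85, SE 0.077, adjusted p = 0.000345). The wild-type and Irf8KO values lay further apart in Flt3+ than in Flt3- GPs. Ms4a3 (1.87), Hp (1.60), S100a8 (1.52), Prtn3 (1.01) and Cebpb (0.60) had called differences of the same sign.

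Among genes well above background on all 8 arrays, the orphan receptor gene Gpr25 gained most by its brighter probe. It read -0.87 and -0.97 on the Flt3+ arrays of wild type against -2.52 and -2.02 on its Flt3- arrays, but 2.02 and 2.06 against -2.70 and -2.27 in Irf8KO (difference between genotypes 3.17, SE 0.28, adjusted p = 0.00202). Within Irf8KO this probe gave a difference of 4.52. A second Gpr25 probe, well above background on 2 of the Irf8KO arrays, gave 2.66. Trem3, a myeloid surface receptor, read -1.49 and -1.61 against 2.84 and 2.90 in wild type and 2.19 and 2.25 against 3.60 and 3.56 in Irf8KO (3.06, SE 0.082). The Flt3+ arrays were thus the ones that differed most between genotypes. Wfdc21 (2.75), Mrgpra2a (2.41) and Mrgpra2b (2.30), the last 2 being near-identical copies, followed, and so did the ETS factor gene Etv5 (2.23), which read -0.26 and -0.30 in Irf8KO Flt3- GPs against 1.60 and 1.50 in those of wild type.

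In the other direction stood 0610040J01Rik (-2.95), the interleukin-2 receptor gene Il2rb (-2.65), Pf4 (-2.52), the chemokine genes Ccl3 (-2.32) and Ccl4 (-1.92), syndecan-1, Sdc1 (-2.27), Retnlg (-1.97) and Zfr2 (-1.97). Pf4 read 1.54 and 1.67 on the Flt3+ arrays of wild type against 0.23 and 0.16 on its Flt3- arrays, but -2.02 and -1.94 against -0.79 and -0.94 in Irf8KO, so that its direction turned. Of 5259 genes called in both genotypes 4868 had the same sign and 391 opposite signs, 294 of them higher in Irf8KO Flt3+ GPs and 97 lower, and all 391 were called in the difference between genotypes. Il2rb, Pf4, Klra16, Prss34, Ccl5 and Vwf had the widest such turns among genes well above background on all 8 arrays.

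The cell division genes differed between genotypes as a list. Of the 37 G2 and M phase genes 36 were called as higher in Irf8KO and none as lower. Over all genes, 21.4% were called as higher and 9.46% as lower, the shares for all counts below. Plk1 read 3.91 and 3.94 on the Flt3+ arrays of wild type against 3.85 and 3.91 on its Flt3- arrays, where its difference was not called (0.04), and its difference between genotypes was 1.05 (SE 0.062, adjusted p = 0.000864). The wild-type values lay between the higher Irf8KO Flt3+ and the lower Irf8KO Flt3- values. Of 49 S phase genes 42 were called as higher in Irf8KO, and of 47 ribosome biogenesis genes 40. After quantile normalization these counts were 35 G2 and M phase, 31 S phase (and 1 lower) and 32 ribosome biogenesis genes. Without that normalization, of 58 interferon-stimulated genes 27 were called as lower and 3 as higher. Of 45 immediate early and heat shock genes 19 were called as lower and 10 as higher, against 9.46% and 21.4% of all genes. Egr1, an immediate early factor, read 3.30 and 3.38 against 1.05 and 1.23 in wild type and 2.40 and 2.47 against 1.70 and 1.73 in Irf8KO (difference between genotypes -1.48, SE 0.10).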

How the data were processed

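RNA of sorted cells was amplified, labelled with 1 dye and hybridised to Agilent mouse arrays, per the labels' protocols. The deposited scanner files give each spot's intensity, background-subtracted by Feature Extraction 10.7.3.1 (protocol GE1_107_Sep09) per the file headers, and other values such as flags of 0 or 1. The authors' deposited value table held the same linear intensities multiplied by 1 factor per array, with column medians of 26.89 to 29.88 and a centring and direction that do not differ from the scanner values. It was used as an alternative, and how it was made is not given in the labels or headers.

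Outlier spots (93 to 178 an array) were left out, spots of a probe were averaged, and log2 of the processed intensity minus each array's 75th percentile (a signal of 321.3 to 634.5) was taken. Of 55681 probes 26762 were named through RefSeq accessions, giving 20284 genes, and 28919 were not named. The brightest probe stood for a gene, and 14105 genes were tested whose probe passed the well-above-background flag on both arrays of 1 or more groups. All 8 arrays entered 1 fit in limma 3.58.1 (R 4.3.3), with 4 residual degrees of freedom, and p-values were adjusted by Benjamini-Hochberg. The fit was tested on simulated data. A gene not well above background on either array of a population has a bound: the bright population's mean over the lowest signal well above background on the dim arrays, or the dim signal if higher. The number of arrays limits the precision.

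Alternatives were normexp, quantile normalization, other filters on dim probes, the value table, the mean of probes, the experiment as a block, the Irf8KO arrays alone and leaving out each array. The compared groups, the gene lists and the rule for named genes were chosen with earlier results of these data known. Genes can belong to several lists. Named were Irf8, Flt3 and the 4 markers; the 10 widest differences in each direction among genes above background on all 4 arrays; the 6 widest bounds in each direction; the 8 widest differences between genotypes in each direction among genes above background on all 8 arrays; the 6 widest turned in sign; and list members.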

Additional observations from a re-analysis of the deposited data

Results flagged for a closer look

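These results are given because the difference between Flt3+ and Flt3- GPs itself differed between the genotypes at an adjusted p under 0.05 (limma) and by at least 2-fold. Of the 430 genes that met this limit, only those that the rule for named genes picked by their own values are given. Genes named above only as list members, such as Cd2 and Elane, met it too and are left out here. Each value is the log2 difference in Irf8KO minus that in wild type. Among lymphoid genes these were Ly6d (4.45), Il7r (3.09), Vpreb3 (2.56), Mzb1 (2.52), Rag1 (2.25) and Blnk (1.89). Among myeloid genes they were Trem3 (3.06), Retnlg (-1.97), Prss34 (-1.89) and Cpa3 (-1.18). Genes of chemokines and platelets gave Pf4 (-2.52), Ccl3 (-2.32), Ccl4 (-1.92), Ccl5 (-1.68) and Vwf (-1.65). Receptor and surface genes gave Gpr25 (3.17), Mrgpra2a (2.41), Mrgpra2b (2.30), Il2rb (-2.65), Sdc1 (-2.27), Klra16 (-1.90) and Prom1 (1.23). The other genes were Wfdc21 (2.75), Etv5 (2.23), Klhl30 (1.50), Tmem121 (1.06), 0610040J01Rik (-2.95) and Zfr2 (-1.97).

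Some such differences rest in part on signals not well above background in 1 population. These were Epha2 (2.45), Nsg2 (1.87), Gm9733 (1.53), Nrg1 (-1.60) and Vcam1 (-3.27), beside Il7r and Rag1. Ly6d (Irf8KO Flt3-), Klhl30 (wild-type Flt3-) and Chst13 (wild-type Flt3+) each had only 1 of the 2 arrays of that group well above background. With normexp background correction the value of Nrg1 turned to 0.352, and Vcam1 (-0.088) and Gm9733 (0.284) were no longer called. The call of Gm9733 was also lost without wild-type Flt3- replicate 1 (1.386) and without Irf8KO Flt3- replicate 1 (1.516). Chst13 (2.25) has a second probe whose difference within Irf8KO was -1.24 and whose difference between genotypes was 0.259, which was not called.

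3 gene lists had most of their members called as higher in Irf8KO in this test, where 21.4% of all genes were. They were G2 and M phase (36 genes), S phase and DNA replication (42 genes) and ribosome biogenesis (40 genes). Groups of 2 arrays were too small for a test of outlying arrays.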

How the results depend on the processing

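Within Irf8KO the count of called genes was 4932 to 6815 when 1 array was left out and 5497 (no filter on dim probes) to 6878 (quantile normalization) otherwise, against 6456. Counts of genes at least 2-fold apart depend on the treatment of dim signals: against 859 higher genes, normexp gave 385 and the filter on all 8 arrays 523, and against 614 lower genes normexp gave 365. In the difference between genotypes (4356 genes called, 3022 higher and 1334 lower), no filter on dim probes gave 2724, 1896 and 828, and quantile normalization 1975 higher. Leaving out 1 array gave 2517 to 4414 in all, 1681 to 3134 higher and 828 to 1280 lower. With the experiment as a replicate block 6551 genes were called within Irf8KO and no named gene's call there changed. Deviations of same-numbered arrays correlated at -0.029 within Irf8KO and at -0.029 to 0.123 over all pairs of groups, so the numbers were not treated as paired. The difference between genotypes turned in sign with normexp for Mn1 (0.006), Ddx4 (-0.701), Nrg1 (0.352), Klrd1 (0.025), Cd86 (-0.491), Gata1 (0.774) and Itga2b (0.056), and for Siglech the mean of probes turned the difference within Irf8KO (1.922) and between genotypes (0.68). The causes were not tested. Signals near background limit the low side of the widest differences, and 2 arrays a group limit the precision.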

Other observations

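Genes of the G1 phase and of cell survival were called in both directions within Irf8KO, beside 22.1% of all genes higher and 23.6% lower. Of 21 measured genes of a list of CDK inhibitors, D cyclins and Gadd45 genes, 10 were higher in Flt3+ GPs and 5 lower (median 0.22, against -0.03 over all genes). Ccnd1, cyclin D1, read 2.76 and 2.82 on the Flt3+ arrays and -0.57 and -0.58 on the Flt3- arrays, 10.3-fold higher, and its difference was larger than in wild type by 1.88. The stress-response genes Gadd45g (-2.29), Gadd45b (-1.77) and Gadd45a (-1.15), neither CDK inhibitors nor D cyclins, were among the lower ones. Of 21 measured BCL2 family genes 9 were higher and 6 lower. Bok, a killer protein of the family, stood at 2.57, Bcl2, the founding survival gene, at 1.45, and Bcl2a1d, a survival gene with near-identical copies, at -1.59.

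Of 33 measured cholesterol and fatty acid synthesis genes 15 were higher in Flt3+ GPs and 7 lower (median 0.12). Of all genes 22.1% were higher and 23.6% lower. The desaturase gene Fads2 (1.27) and the elongase gene Elovl6 (1.25) were higher and Acsl1, which activates fatty acids, was lower (-1.27).

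For Siglech, a marker of plasmacytoid dendritic cells chosen here after its values were seen, probes differed. The brighter one was not called within Irf8KO (-0.12), while the other gave 3.97, with its Flt3- signal not well above background. Over all genes, 3675 had several probes that passed the filter, and 2 of them had probes at least 2-fold apart in opposite directions. Of 42 named genes with several such probes, 9 had a probe more than 1 log2 away from the one used.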
